A study of Mus musculus with 6 samples.

Results

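The 43 genes described here belong to the response that cells mount to amino acid shortage and to unfolded protein in the endoplasmic reticulum (ER). They were listed by symbol as targets of the transcription factor ATF4, as ER chaperones, or as parts of the machinery around them, and they are 43 of the 20018 genes that the array's probes name. All 43 had a probe. The list has 24 ATF4 targets and 12 ER chaperones and folding enzymes, and the remaining 7 genes are Atf4 itself, the ER stress sensors with Xbp1, and genes of ER-associated degradation. The rule itself uses no signal of these arrays, but the genes and all lists were chosen with earlier results of these data known. Counts of these genes given below are therefore descriptions and not independent evidence.

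The arrays compared lung fibroblasts of Mmp19 knockout mice, which lack a secreted matrix metalloproteinase, with those of wild-type mice, 3 arrays per genotype. Every animal of both groups had received 0.08 u of bleomycin, an agent that injures the lung and starts fibrosis, through the trachea. The animals were labelled as female and 11 weeks old, and fibroblasts were taken on day 21, cultured, and incubated for 72 h. The study names 3 independent experiments for the arrays, no untreated animals were analysed here, and p-values measure the spread between these cultures. Strain, the deleted part of Mmp19, and the number of animals behind each culture are not given in the sources used here.

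Each array measured 1 RNA sample in 1 colour, and values are scaled log2 signals, the log2 of the processed signal minus that array's 75th percentile. A value of 0 is therefore the 75th percentile of the array and a difference of 1 is a doubling. Spots well above background made up 43.1% to 54.5% of an array, no spot was saturated, and the number of arrays limits the precision. The single Mmp19 probe was detected, that is, cleared background, on 3 of 3 wild-type arrays and on 0 of 3 knockout arrays, with means of -1.31 ± 1.2 and -5.93 ± 0.65 (SD, n = 3), which puts the knockout at least 5.33-fold below the wild type (limma adjusted p = 0.016); that bound sets the wild-type mean against the lowest detectable signal on the knockout arrays.

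The labelled cell type could be checked on 11 fibroblast markers, of which 10 were well above background on all 6 arrays. Their summed level, the sum over markers of the signal in multiples of the array's 75th percentile, was 2100 to 2340 in the knockout and 1220 to 2090 in the wild type. Of these markers 2 rose in the knockout, Col1a1 and Col1a2, the chains of type I collagen, at 2.77-fold and 2.37-fold (limma adjusted p = 0.0307 and 0.0415, or 0.0845 and 0.0944 with slide as a block), and their part in the results was not tested. Lum, a collagen-binding proteoglycan, was below background on wild-type array 2. Mesothelial markers moved with genotype: 4 of 8 measured were well above background on all 6 arrays, 5 rose in the knockout, and their summed level was 38.9 to 110 in the knockout against 3.3 to 12.5 in the wild type. Among those that rose, Upk3b and Lrrn4 cleared background on 2 wild-type arrays and Bnc1 on 1. These entered the test only through the knockout arrays, so their p-values rest partly on wild-type values below background. The part of the mesothelial markers in the results below was not tested, and in bulk RNA fewer cells of a type and less RNA per cell cannot be told apart. Sums of macrophage markers were 12.4 to 16.5 against 9.46 to 10.7. Of these, 2 of 5 measured were well above background on all 6 arrays, and 0 passed the threshold. Csf1r was the brightest, with means of 3.48 and 2.82 (limma adjusted p = 0.305). Epithelial markers summed to 29.7 to 56.4 against 36.8 to 46.1. Of these, 5 of 7 were well above background on all 6 arrays, and Epcam and Nkx2-1 on none. Sftpc was the brightest, with mean scaled log2 signals of 4.95 in the knockout and 4.97 in the wild type. Endothelial markers summed to 3.31 to 4.7 against 3.59 to 5.12, with 4 of 6 well above background on all 6 arrays and Tek and Tie1 on none.

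2 departures from the labels or from the other arrays touch the whole comparison. Every animal is labelled female, yet Eif2s3y and Ddx3y of the Y chromosome were detected on all 6 arrays. Both were lower in the knockout without overlap. Eif2s3y measured 2.19, -1.77 and 0.67 against 2.92, 4.18 and 3.62 (limma adjusted p = 0.112). Ddx3y measured 0.02, -3.26 and -0.99 against 0.49, 1.5 and 1.21 (limma adjusted p = 0.139). Kdm5d of the Y chromosome was detected on 0 arrays, and each Uty probe on 1 wild-type array. Xist, which is transcribed from an inactivated X, was detected on 3 knockout arrays and 0 wild-type arrays. The signals of Eif2s3y, Ddx3y and Xist differed with genotype. Their part in the results cannot be told apart from that of the knockout and was not tested. Wild-type array 2 correlated with the other wild-type arrays at 0.939 and 0.96 over tested probes, and those arrays with each other at 0.984. Among the knockout arrays, arrays 1 and 2 correlated at 0.958, arrays 1 and 3 at 0.98 and arrays 2 and 3 at 0.986.

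The response runs through several parallel arms that begin with stress sensors. The kinases PERK, which senses unfolded protein in the ER, and GCN2, which senses uncharged tRNA, phosphorylate eIF2alpha, and translation of ATF4 then rises and ATF4 switches on genes for amino acid synthesis, uptake and tRNA charging together with stress regulators. In parallel, IRE1 splices the mRNA of XBP1 and ATF6 is cleaved to an active factor, and both raise chaperones, folding enzymes and degradation factors of the ER. Fibroblasts, which secrete large amounts of collagen, rely on this folding capacity.

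Each arm has a short DNA element near its target genes, and promoters are shown so that these can be compared. The ATF4 element, called CARE for C/EBP-ATF response element, was searched as TGATGNAA. The ER stress element ERSE was searched as CCAAT, 9 bases of any kind and CCACG, and its relative ERSE-II as ATTGG, 1 base of any kind and CCACG. Every search used both strands of the 250 bases before each gene's start in RefSeq (build GRCm38.p6), where 37 of the 43 genes had an entry, and no match overlapped another. CARE occurred in 3.45% of the 32851 windows of all genes, ERSE in 0.113% and ERSE-II in 0.0304%. Of 20 ATF4 targets with a window, 7 held CARE (Aars, Asns, Atf3, Chac1, Gars, Slc7a11 and Vldlr) and 0 held ERSE. Of 11 chaperones with a window, 6 held ERSE (Calr, Creld2, Dnajc3, Hsp90b1, Hspa5 and Pdia6) and 0 held CARE. The degradation gene Herpud1 held a CARE and an ERSE-II, and Syvn1 held an ERSE. A match is only these letters in this window; it is no measurement of binding.

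The windows below are those of ATF4 targets that differed in their change (Chac1, Atf3 and Asns), of Herpud1 with an element of each arm, and of 3 ERSE chaperones (Hspa5, Hsp90b1 and Pdia6). They run 5′ to 3′ on the gene's strand. Capitals mark the whole CARE match, or the fixed letters of ERSE and ERSE-II.
Chac1, chr2:119350992-119351241, plus strand: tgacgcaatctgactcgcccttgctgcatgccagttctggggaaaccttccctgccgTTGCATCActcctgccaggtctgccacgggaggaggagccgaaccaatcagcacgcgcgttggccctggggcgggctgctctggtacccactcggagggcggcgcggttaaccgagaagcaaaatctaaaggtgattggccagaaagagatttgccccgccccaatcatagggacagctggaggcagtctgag
Atf3, chr1:191183334-191183583, minus strand: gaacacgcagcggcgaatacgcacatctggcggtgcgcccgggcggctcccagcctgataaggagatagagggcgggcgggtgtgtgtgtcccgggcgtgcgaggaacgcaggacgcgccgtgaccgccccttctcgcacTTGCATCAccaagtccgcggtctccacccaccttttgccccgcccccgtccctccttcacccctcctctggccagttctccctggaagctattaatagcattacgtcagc
Asns, chr6:7693210-7693459, minus strand: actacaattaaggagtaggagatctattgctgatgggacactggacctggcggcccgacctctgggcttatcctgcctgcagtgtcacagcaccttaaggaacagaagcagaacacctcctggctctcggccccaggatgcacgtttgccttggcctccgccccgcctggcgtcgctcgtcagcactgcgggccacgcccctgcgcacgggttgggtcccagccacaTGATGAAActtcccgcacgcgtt
Herpud1, chr8:94386179-94386428, plus strand: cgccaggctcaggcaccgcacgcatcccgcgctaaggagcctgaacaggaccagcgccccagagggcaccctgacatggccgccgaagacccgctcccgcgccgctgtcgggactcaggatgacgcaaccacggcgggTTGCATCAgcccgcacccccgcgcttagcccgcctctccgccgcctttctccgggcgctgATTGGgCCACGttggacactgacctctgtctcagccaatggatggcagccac
Hspa5, chr2:34771840-34772089, plus strand: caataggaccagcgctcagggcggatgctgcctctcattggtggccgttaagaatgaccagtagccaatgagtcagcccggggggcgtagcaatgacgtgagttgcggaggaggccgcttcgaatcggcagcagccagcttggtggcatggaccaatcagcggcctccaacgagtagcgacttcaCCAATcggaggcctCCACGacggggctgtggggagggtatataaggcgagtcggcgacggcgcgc
Hsp90b1, chr10:86705445-86705694, minus strand: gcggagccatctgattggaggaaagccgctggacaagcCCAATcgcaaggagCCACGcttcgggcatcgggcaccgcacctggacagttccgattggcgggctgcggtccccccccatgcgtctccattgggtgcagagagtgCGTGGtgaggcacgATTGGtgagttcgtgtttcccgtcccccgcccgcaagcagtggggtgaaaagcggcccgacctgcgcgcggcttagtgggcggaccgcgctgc
Pdia6, chr12:17266339-17266588, plus strand: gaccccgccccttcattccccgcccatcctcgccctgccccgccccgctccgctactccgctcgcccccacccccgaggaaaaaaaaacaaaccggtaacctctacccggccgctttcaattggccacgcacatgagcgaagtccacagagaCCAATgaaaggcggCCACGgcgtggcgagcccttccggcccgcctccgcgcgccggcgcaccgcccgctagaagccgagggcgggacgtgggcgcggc
The CARE of Chac1 lies from base -193 to base -186 and that of Atf3 from -110 to -103, counted back from the gene's start, and both read as the reverse strand of the element. In Asns the match lies from -23 to -16. Hspa5 has 1 match to the searched ERSE letters, from -65 to -47, and Hsp90b1 has 2, from -212 to -194 and from -107 to -89. Elements that depart from these letters were not searched.

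Of the 43 genes, 41 passed the filter for signal above background, and each of these was well above background on all 6 arrays. In the knockout, Chac1, Vldlr, Trib3 and Pdia3 rose and 0 of 41 fell (limma, adjusted p below 0.05 over all 24214 probes tested). Among all 12470 genes tested, 4.8% passed the same rule, 3.3% higher and 1.49% lower. Over single probes the shares were 4.64%, 2.88% and 1.76%. The arrays of 20 members did not overlap with the knockout higher and of 0 with it lower, against 21.2% and 9.79% of all genes. At an unadjusted p below 0.05, 16 members were higher and 0 lower, against 14.4% and 7.38% of all genes. The median log2 difference of the 41 was 0.45, with 32 positive (78.0%) and 9 negative, and that of all genes was 0.08, with 56.3% positive.

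None of the 4 calls survived with slide as a block, the fit that takes out the differences between the 3 slides. Each slide carried 1 array per genotype with the same replicate number. In that fit 1.17% of all genes were higher and 0.626% lower. The 4 fitted differences were the same as without the block. Their standard errors were 0.25 in Chac1 (0.33 without the block), 0.2 in Vldlr (0.22), 0.19 in Pdia3 (0.21) and 0.19 in Trib3 (0.19). The slide terms leave fewer degrees of freedom for estimating the spread. Leaving out wild-type array 2 kept all 4 calls, leaving out knockout array 2 kept Chac1 alone, and leaving out knockout array 1, knockout array 3, wild-type array 1 or wild-type array 3 kept 0. Wild-type array 2 gave the lowest value of the 6 arrays in 24 of the 41 genes (58.5%), against 36.2% of all genes.

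ATF4 and the 2 stress factors it induces stood higher in the knockout without passing the threshold. Atf4, the central activator, had scaled log2 signals of 8.86, 8.67 and 8.41 on knockout arrays 1 to 3 and of 8.14, 7.62 and 8.05 on wild-type arrays 1 to 3. The knockout arrays all lay above the wild-type arrays, and wild-type array 2 was lowest. The difference was 0.71 ± 0.24 (SE, n = 3 per group; limma adjusted p = 0.15, or 0.186 with slide as a block), 1.64-fold, and 0.73, 1.05 and 0.36 within slides 1, 2 and 3. A dimmer Atf4 probe gave 0.81.

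Ddit3 encodes CHOP, a factor that promotes death under lasting ER stress. It measured 4.28, 2.93 and 3.6 on the knockout arrays and 2.2, 2.23 and 2.49 on the wild-type arrays, so the groups did not overlap and knockout array 1 stood highest. The difference was 1.3 ± 0.35 (SE, n = 3 per group; limma adjusted p = 0.0917, or 0.131 with the block), 2.07, 0.7 and 1.11 within slides. Atf3, a stress factor of the same family, measured 2.04, 3.42 and 3.3 against 2.05, 0.96 and 1.91, with knockout array 1 inside the wild-type range. Its difference was 1.28 ± 0.46 (SE, n = 3 per group; limma adjusted p = 0.175, or 0.247 with the block), and within slides it was -0.01, 2.47 and 1.39.

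Stress regulators and effectors held 3 of the 4 genes that rose (3.3% of all genes rose). Of these 6 genes, 4 did not overlap with the knockout higher (21.2% of all genes). Chac1, an enzyme that degrades glutathione, had the largest difference of the 41 genes. Its signals were 5.81, 4.7 and 5.05 on the knockout arrays and 3.33, 2.86 and 3.45 on the wild-type arrays. Every knockout array was above every wild-type array. The means were 5.19 ± 0.56 and 3.21 ± 0.31 (SD, n = 3), 3.93-fold higher in the knockout by 1.97 ± 0.33 (SE; 95% interval 1.18 to 2.77; limma adjusted p = 0.0277). The adjusted p was 0.0508 in the blocked fit, and within slides the difference was 2.48, 1.84 and 1.61.

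Vldlr, the very-low-density lipoprotein receptor and an ATF4 target, measured 4.27, 3.95 and 3.91 against 3.02, 2.58 and 2.84, again without overlap. It rose by 1.23 ± 0.22 (SE, n = 3 per group; 95% interval 0.71 to 1.75; limma adjusted p = 0.0316, or 0.0706 with the block), 2.35-fold. A dimmer probe of Vldlr measured 0.33, 0.06 and 0.47 against -1.67, -2.21 and -1.46, rose by 2.07 ± 0.26 (limma adjusted p = 0.013), and passed with slide as a block too (0.0351). Trib3, a pseudokinase that dampens ATF4 and Akt signalling, measured 4.04, 4.14 and 3.8 on the knockout arrays and 3.03, 3.01 and 2.94 on the wild-type arrays, which lay close together. It rose by 1 ± 0.19 (SE, n = 3 per group; limma adjusted p = 0.0393, or 0.0906 with the block), 2-fold, and by 1.01, 1.13 and 0.86 within slides. Scaled to probes detected on all 6 arrays, Trib3 missed the threshold (adjusted p = 0.0522). Ppp1r15a, the GADD34 subunit that reverses eIF2alpha phosphorylation, measured 6.06, 6.37 and 6.04 against 5.19, 5.51 and 5.46 and missed the threshold at 0.77 ± 0.21 (limma adjusted p = 0.0929). Sesn2, a sensor of leucine that restrains mTORC1, differed by -0.16 ± 0.21, and Ddit4, another mTORC1 inhibitor, by -0.06 ± 0.46 with a 95% interval from -1.14 to 1.03.

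**Figure D1:**
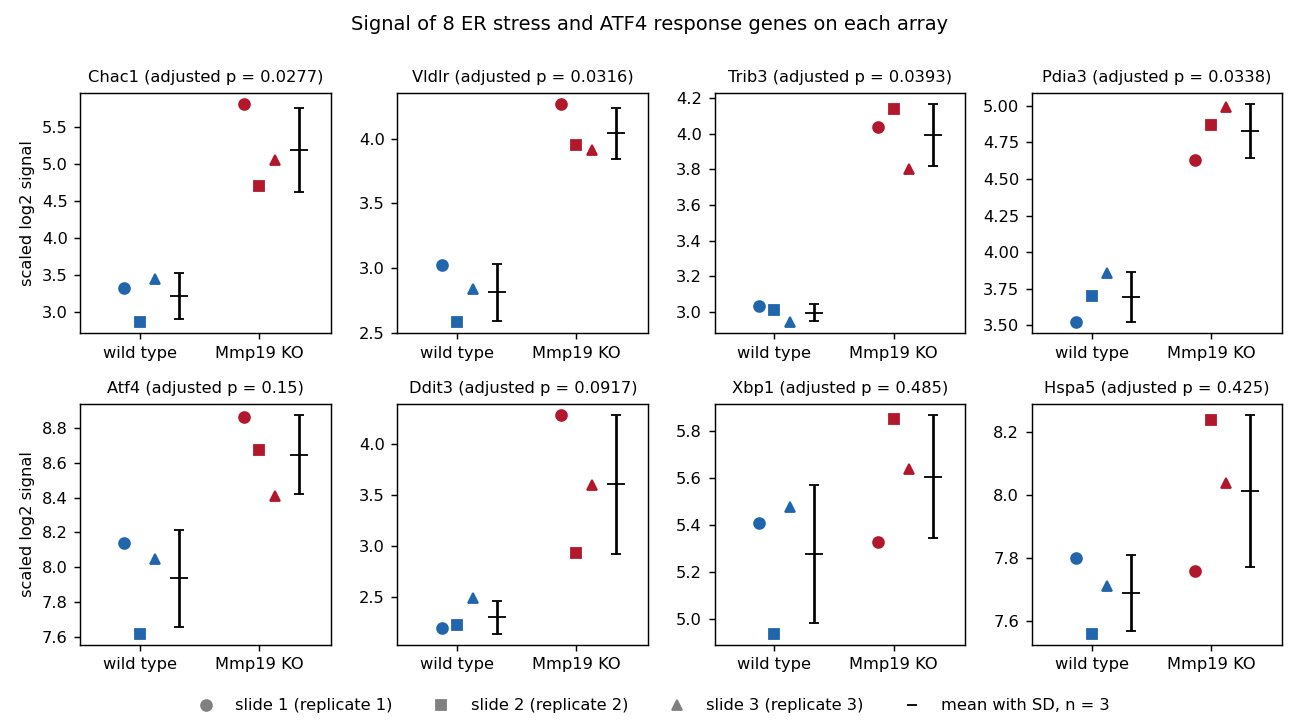
Scaled log2 signal of 8 genes on each of the 6 arrays, with slide shown by symbol and mean with SD (n = 3) beside each group; each panel has its own axis, which does not start at 0. The 3 knockout arrays lie above the 3 wild-type arrays for Chac1, Vldlr, Trib3, Pdia3, Atf4 and Ddit3, and overlap them for Xbp1 and Hspa5.

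The metabolic targets of ATF4 had smaller differences. Of 7 genes of amino acid and one-carbon synthesis 0 passed the test, their median difference was 0.05, and the range was -0.08 to 0.45. Asns, which makes asparagine and is a classic ATF4 target, measured 5.72, 6.04 and 5.88 against 5.9, 5.91 and 6.02, with the genotypes intermixed. Its difference was -0.07 ± 0.19 (SE, n = 3 per group; limma adjusted p = 0.869), with a 95% interval from -0.52 to 0.39. Phgdh, which starts serine synthesis, differed by 0.05 ± 0.23 with a 95% interval from -0.51 to 0.61. Psat1, the next enzyme, differed by -0.08 ± 0.2 on the probe used, and a dimmer one gave 0.27.

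Psph, the last enzyme of serine synthesis, measured 4.25, 4.48 and 4.19 against 3.65, 4.01 and 3.9 without overlap. It missed the threshold at 0.45 ± 0.21 (SE, n = 3 per group; limma adjusted p = 0.268), and a dimmer probe gave 0.87 ± 0.2 (adjusted p = 0.0591). Cth, which makes cysteine from cystathionine, measured 0.54, 1.18 and 0.72 against 0.56, 0.2 and 0.59, and wild-type array 2 was lowest. Its difference was 0.37 ± 0.25 (limma adjusted p = 0.441), and a dimmer Cth probe gave 0.4 ± 0.25 with no overlap. Shmt2 and Mthfd2, mitochondrial one-carbon enzymes, differed by -0.07 ± 0.39 and 0.37 ± 0.3.

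Of the 4 amino acid transporters 3 were tested and 0 passed, with differences from -0.49 to 0.71. Slc7a5, the leucine carrier LAT1, measured 1.57, 1.27 and 1.17 against 0.78, 0.47 and 0.64 without overlap, at 0.71 ± 0.21 (SE, n = 3 per group; limma adjusted p = 0.116). A dimmer Slc7a5 probe gave -0.39, so its probes disagree in sign. Slc3a2, the heavy chain that carries LAT1 to the membrane, differed by 0.5 ± 0.31. Slc7a1, a carrier of cationic amino acids, measured 3.76, 3.34 and 3.54 against 3.74, 4.33 and 4.03 and differed by -0.49 ± 0.24 (limma adjusted p = 0.292). Slc7a11, the cystine carrier xCT, was not tested: it was detected on 1 knockout and 2 wild-type arrays, with -4.35, -3.85 and -3.92 against -1, -5.39 and -1.21.

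None of the 5 aminoacyl-tRNA synthetases, which charge tRNA with amino acids, passed the test, and their median difference was 0.09. Nars, the asparagine enzyme, measured 2.54, 2.5 and 2.35 against 1.87, 2 and 2.17 without overlap and differed by 0.45 ± 0.19 (SE, n = 3 per group; limma adjusted p = 0.248). Wars, the tryptophan enzyme, measured 3.59, 4.43 and 3.8 against 4.34, 4.68 and 4.44 and differed by -0.55 ± 0.27 (limma adjusted p = 0.3), while its other probe gave 0.24. Aars, Gars and Sars, for alanine, glycine and serine, differed by 0.09, -0.14 and 0.23.

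Among the ER sensors the values differed from gene to gene. Atf6, the sensor that is cleaved to an activator, measured 0.47, 0.7 and 1.06 against -0.28, -1.23 and -0.23, with wild-type array 2 lowest and no overlap. The difference was 1.32 ± 0.33 (SE, n = 3 per group; limma adjusted p = 0.0772, or 0.109 with the block), 2.5-fold. Xbp1, the factor that IRE1 activates by splicing, measured 5.33, 5.85 and 5.64 against 5.41, 4.94 and 5.48, and the groups overlapped. Its difference of 0.33 ± 0.25 (limma adjusted p = 0.485) was -0.09, 0.91 and 0.16 within slides. The probe does not tell spliced from unspliced Xbp1. Ern1, which encodes IRE1, differed by -0.11 ± 0.22.

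ER chaperones and folding enzymes were higher in the knockout in 11 of 11 tested genes by the sign of the difference, and 1 passed the threshold. Their differences ran from 0.25 to 1.14 with a median of 0.74, 6 had an unadjusted p below 0.05 with the knockout higher (14.4% of all genes), and 9 did not overlap with the knockout higher (21.2% of all genes); 56.3% of all genes had a positive difference. Pdia3, a disulfide isomerase that folds glycoproteins with calreticulin, measured 4.63, 4.87 and 4.99 against 3.52, 3.7 and 3.86. It rose by 1.14 ± 0.21 (SE, n = 3 per group; 95% interval 0.64 to 1.63; limma adjusted p = 0.0338, or 0.0723 with the block), 2.2-fold, and by 1.11, 1.16 and 1.14 within slides. Hsp90b1, the ER HSP90 protein GRP94, measured 8.56, 8.3 and 8.32 against 7.7, 6.95 and 7.44, with no overlap. Its difference was 1.03 ± 0.25 (SE, n = 3 per group; limma adjusted p = 0.0727, or 0.101 with the block), and it passed with a trended robust prior (0.0436).

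Hspa5, the chaperone BiP and the usual marker of ER stress, measured 7.76, 8.24 and 8.04 against 7.8, 7.56 and 7.71, and knockout array 1 lay within the wild-type range. Its difference was 0.32 ± 0.21 (SE, n = 3 per group; 95% interval -0.18 to 0.83; limma adjusted p = 0.425). Calr, the lectin chaperone calreticulin, differed by 0.88 ± 0.24 (limma adjusted p = 0.0896), and Sdf2l1, a BiP cofactor, by 0.95 ± 0.35 (0.182). Dnajc3, a BiP co-chaperone, and Manf, a secreted ER stress protein, differed by 0.76 ± 0.24 and 0.74 ± 0.23, each without overlap. Pdia6, a disulfide isomerase, differed by 0.47 ± 0.22 on its brighter probe (limma adjusted p = 0.278), while a dimmer probe measured 2.99, 3.35 and 3.34 against 1.81, 1.96 and 2.3 and rose by 1.2 ± 0.23 (adjusted p = 0.037, or 0.0723 with the block). The isomerase Pdia4 differed by 0.56 ± 0.31, Creld2, a secreted ER stress protein, by 0.47 ± 0.29, and Dnajb9, a co-chaperone, by 0.25 ± 0.19. Dnajb11, another co-chaperone, was well above background on 0 arrays and was not tested.

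Of the 3 genes of ER-associated degradation, which sends misfolded protein to the proteasome, 0 passed. Herpud1, a membrane factor of this route, measured 4.71, 4.5 and 4.32 against 3.86, 3.41 and 3.7, with no overlap. The difference was 0.85 ± 0.22 (SE, n = 3 per group; limma adjusted p = 0.0824, or 0.125 with the block). Syvn1, the ubiquitin ligase HRD1, measured 5.13, 5.04 and 4.49 against 4.54, 4.43 and 4.45 and differed by 0.41 ± 0.23 (limma adjusted p = 0.361). Edem1, which picks out misfolded glycoproteins, differed by 0.14 ± 0.23.

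**Figure D2:**
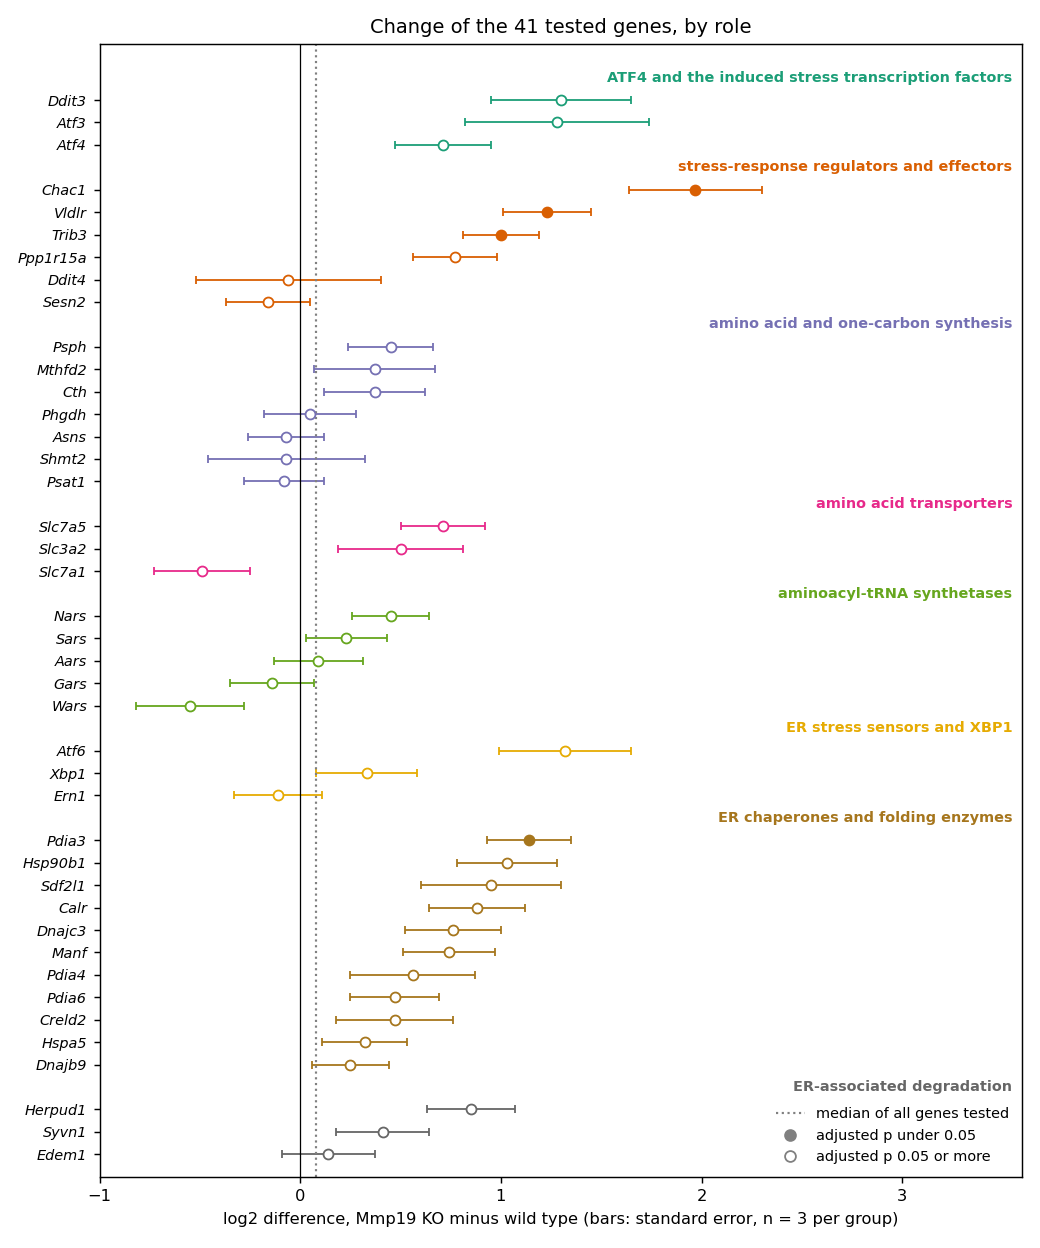
Log2 difference, knockout minus wild type, of the 41 tested genes by role, with standard errors (n = 3 per group) and filled points for adjusted p below 0.05; the dotted line is the median of all genes, 0.08. Filled points are Chac1, Vldlr, Trib3 and Pdia3, all 11 chaperones lie right of 0, and synthesis genes lie between -0.08 and 0.45.

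Set against each other, ATF4 targets had the smaller median difference, 0.37 over 23 tested genes (3 rose, 0 fell, 15 positive and 8 negative), and ER chaperones the larger, 0.74 over 11. These are descriptions of the lists, without a test. On each array the level of a list was taken as the median over its genes of the value minus that gene's mean over the 6 arrays. Chaperones stood at 0.11, 0.44 and 0.38 on the knockout arrays and -0.18, -0.56 and -0.19 on the wild-type arrays, and ATF4 targets at -0.03, 0.19 and 0.13 against -0.11, -0.37 and -0.04. Wild-type array 2 was lowest in both lists, as it was over all genes (-0.18), and the genotypes did not overlap in either, although in ATF4 targets knockout array 1 and wild-type array 3 nearly met. ATF4 targets minus chaperones was -0.15, -0.26 and -0.25 on the knockout arrays and 0.07, 0.18 and 0.14 on the wild-type arrays, with means of -0.22 ± 0.06 and 0.13 ± 0.06 (SD, n = 3).

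The median of the ATF4 targets moved with single arrays: it was 0.2 without knockout array 2 and 0.22 without wild-type array 2. That of the chaperones was 0.6 without wild-type array 2, which was the lowest of the 6 arrays in 72.7% of them. Within slides 1, 2 and 3 the medians were 0.02, 0.49 and 0.17 for ATF4 targets, 0.32, 1.22 and 0.61 for chaperones, and the difference in favour of chaperones had the same sign on each slide (-0.3, -0.73 and -0.44). Chaperones were positive in 9, 11 and 11 of 11 genes within slides, with Hspa5 and Creld2 below 0 on slide 1.

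Atf4 and its targets were not alike among themselves. Atf4, which is not itself counted as a target, was grouped with the stress factors, regulators and effectors. These 9 genes had a median difference of 1, with 3 that rose and 6 without overlap. The 15 tested genes of synthesis, transport and tRNA charging had a median of 0.09, with 0 that rose and 3 without overlap. Over all genes, 3.3% rose and 21.2% did not overlap with the knockout higher, and the 3 of 15 is near that share. The split into 9 and 15 genes was chosen after values were seen and gets no test. On the knockout arrays the 9 genes stood at 0.55, 0.5 and 0.31 and on the wild-type arrays at -0.41, -0.72 and -0.37. The 15 metabolic genes stood at -0.04, 0.16 and 0.09 against -0.05, -0.22 and 0.07, with the genotypes overlapping.

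**Figure D3:**
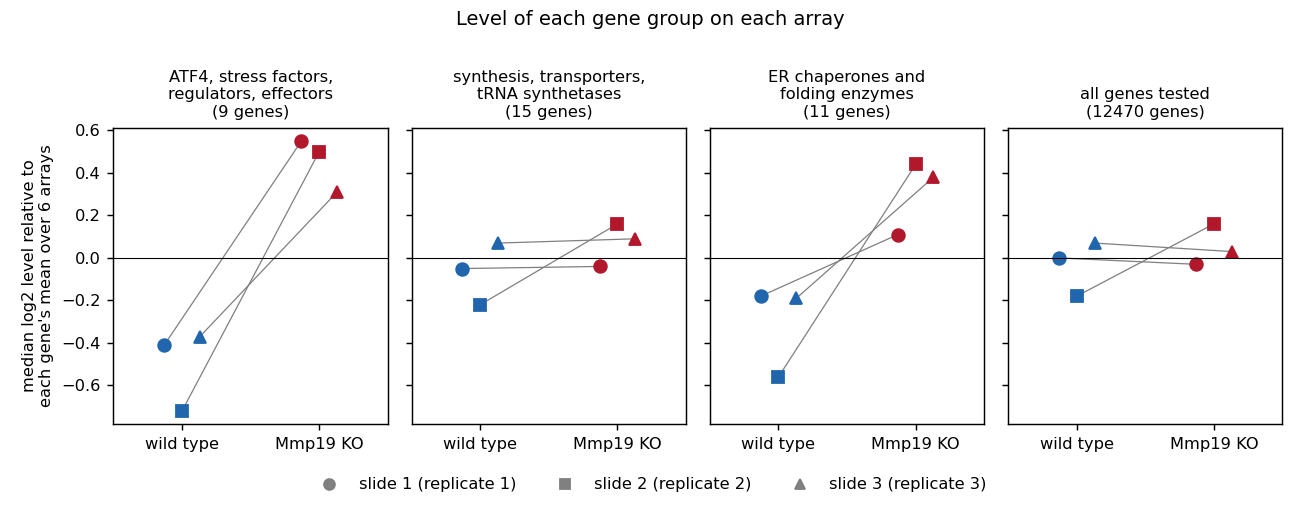
Median level of gene groups on each array, relative to each gene's mean over the 6 arrays; symbols mark slides and grey lines join the arrays of a slide. The 9 genes made up of Atf4, stress factors, regulators and effectors separate the genotypes, as do the 11 chaperones. The 15 synthesis, transport and tRNA charging genes do not, and all genes lie between -0.18 and 0.16.

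A match in the promoter window did not go with a single size of change. Of the tested genes with a CARE, Chac1 differed by 1.97, Atf3 by 1.28, Vldlr by 1.23 and Herpud1 by 0.85, while Aars, Asns and Gars differed by 0.09, -0.07 and -0.14. Trib3 and Pdia3, which both rose, had no exact match to the searched letters in their windows. Near matches were not searched, so these genes cannot be said to lack an element. Genes with an ERSE ran from 0.32 in Hspa5 through 0.41 in Syvn1, 0.47 in Pdia6 and Creld2, 0.76 in Dnajc3 and 0.88 in Calr to 1.03 in Hsp90b1.

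Of 81 further genes of the pathway, 76 were tested: 3 rose, 0 fell, and the median difference was 0.14. Their count of calls is near the share of all genes that rose, 3.3%. Among the 45 tested on the ATF4 side, 1 rose, also near that share. Fgf21, a stress-induced hormone, measured 0.33, -1.58 and -0.98 on the knockout arrays and -5.87, -5.37 and -6.6 on the wild-type arrays, none of which was above background, at least 7.96-fold higher (limma adjusted p = 0.00682, or 0.0367 with the block). It entered the test only through the knockout arrays, so its p rests on wild-type values below background, and it was not tested where probes had to be detected on all 6 arrays. With normexp background correction its fitted difference was 1.55 and it missed the threshold (adjusted p = 0.0542). The 15 other synthetases had 0 calls and a median of 0.07. The 6 genes of the eIF2alpha kinases (PERK and GCN2 included), of eIF2alpha itself and of a phosphatase subunit had 0 calls and a median of -0.07.

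Among the 31 tested on the ER side, with a median of 0.44, 2 rose (3.3% of all genes) and 14 had all knockout arrays above the wild-type arrays (21.2% of all genes). Pdia5, a disulfide isomerase, measured 2.8, 2.22 and 2.8 against 1.07, 1.2 and 1.48 and rose by 1.36 ± 0.25 (SE, n = 3 per group; limma adjusted p = 0.0338, or 0.0771 with the block). Sel1l, the partner of HRD1 in degradation, measured 1.04, 1.25 and 1.12 against 0.15, -0.13 and 0.29 and rose by 1.04 ± 0.21 (limma adjusted p = 0.0416, or 0.103 with the block), and by normexp its difference was 0.66 (adjusted p = 0.229). The 13 other folding genes tested had a median of 0.69, and 10 did not overlap with the knockout higher.

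**Figure D4:**
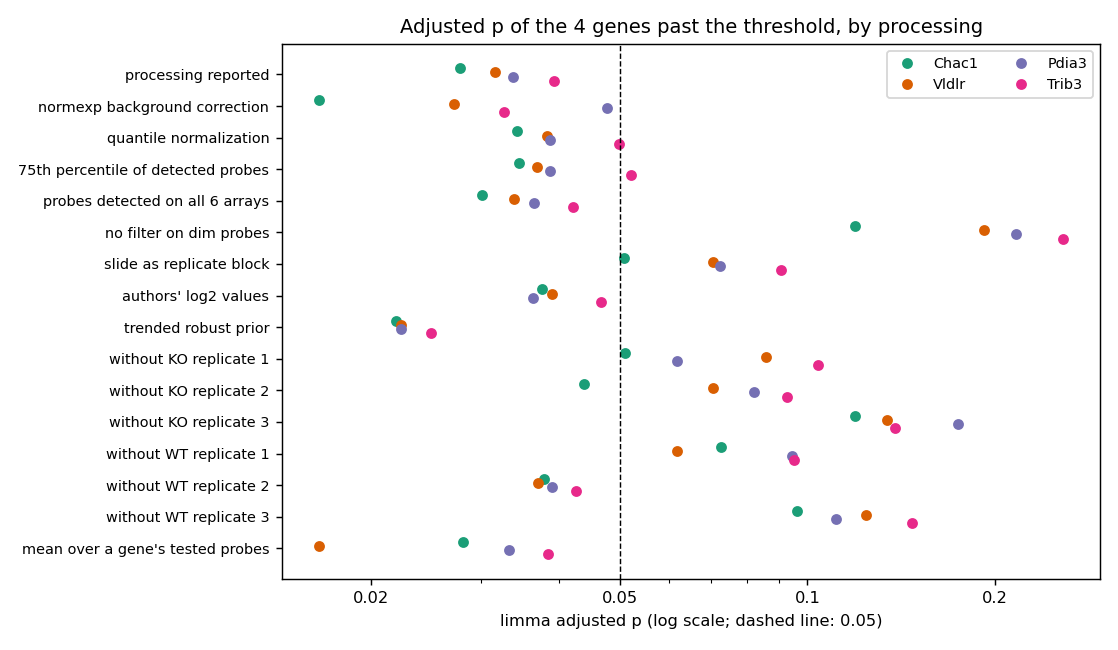
Limma adjusted p (log axis, dashed line at 0.05) of Chac1, Vldlr, Pdia3 and Trib3 under the reported processing and the alternatives tried. Points lie right of the line for all 4 genes with slide as a block, with no filter, and without knockout array 1 or 3 or wild-type array 1 or 3; for Chac1 the adjusted p ran from 0.0165 to 0.119.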

How the data were processed

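The authors' scanner files gave, per the file headers, a processed signal per spot as an intensity from Agilent Feature Extraction 10.7.3.1, whereas the submitters' processing notes name version 9.1. The 43 genes and all gene lists were chosen with earlier results of these data known. Outlier spots (110 to 455 per array) and control spots were left out, spots of a probe were averaged, each array's 75th percentile was subtracted after log2, and a probe counted as well above background where over 50% of its spots did. Tested probes had to clear background on each of the 3 arrays of 1 genotype or of both, which kept 24214 of 55681 probes. Names came through RefSeq accessions (GRCm38.p6) for 26413 probes (47.4%), and a gene was read from its brightest tested probe. Tests used limma 3.58.1 in R 4.3.3 (lmFit and eBayes, two-sided, Benjamini-Hochberg over all probes), and the script was tested on simulated data. Named in full are genes past adjusted p 0.05, Atf4, Ddit3, Xbp1, Hspa5 and the 2 genes with the smallest p in each list; of the other pathway genes, those past the threshold. Array values of Atf3, Asns, Ppp1r15a, the untested Slc7a11 and the dimmer probes of Vldlr and Pdia6 were added after their values were seen. 1 set of cell type markers is not reported here.

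Each of 3 slides held the knockout and wild-type arrays of 1 replicate number, so slide is also the replicate block. Deviations from group means correlated at 0.096, -0.021 and 0.21 within slides, so arrays were not treated as pairs, and the block is given as an alternative because slide is a batch. The authors' deposited log2 value table (35844 probes, array medians 5.51 to 5.76) correlated with the same array's scanner values at 0.999 or more and with other arrays at 0.986 or less; its centring and normalization are not given in the sources used here, and it was used as an alternative. Alternatives were background correction (normexp, offset 50), 2 other scalings, 2 other filters, the block, the authors' table, the mean over probes, another prior, and leaving out each array.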

Additional observations from a re-analysis of the deposited data

How the results depend on the processing

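The number of probes past the threshold was 1124 (62.0% higher in the knockout). It was 632 with normexp, 650 with only probes detected on all 6 arrays, 113 with no filter on dim probes, 385 with slide as replicate block, and 107 to 1716 with 1 array left out. Without wild-type array 2, the 1716 probes split into 838 higher and 878 lower (48.8% higher). Scaling to probes detected on all 6 arrays moved the median of all probes from 0.07 to -0.04 and the higher share to 51.9%. The 4 members that rose became 0 with no filter and 0 with the replicate block, and 0 to 4 with 1 array left out. The members called lower numbered 0 throughout. The median of ATF4 targets, 0.37, was 0.21 by the authors' values, 0.2 to 0.37 with 1 array left out, and 0.02, 0.49 and 0.17 within slides. That of the chaperones, 0.74, was 0.57 with normexp, 0.59 to 0.85 with 1 array left out and, within slides, 0.32, 1.22 and 0.61. ATF4 targets minus chaperones, -0.38, was -0.29 with normexp, -0.28 with quantile normalization, -0.53 with the mean over probes, -0.53 to -0.31 with 1 array left out, and -0.3, -0.73 and -0.44 within slides. The cause of these shifts was not tested.

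Among the 15 tested alternatives the 11 chaperones stayed positive and 33 of 41 members kept 1 sign; Aars, Asns, Ddit4, Edem1, Ern1, Phgdh, Psat1 and Shmt2 took both. Over single genes and settings, 688 values kept their call or moved by less than the replicate spread, 43 lost their call, 1 gained it, 59 moved further and 0 reversed. The 688 include genes that were never called, and a reversal was counted only where a call was involved, so the sign changes above are not among reversals. Of 15 tested alternatives, Chac1 kept its call in 9, Pdia3 and Vldlr in 8 and Trib3 in 7. Pdia5 kept it in 9, Sel1l in 7, and Fgf21 in 13 of 14. With 3 arrays per group, differences near 0.5 had standard errors of about 0.2 to 0.3 and were not resolved. Genes near background, such as Slc7a11, gave bounds or no value.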
